A study of Oryctolagus cuniculus with 17 samples.

Results

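The genes described here were 9 members of the NF-kB system, measured in the lung of preterm rabbit pups kept in hyperoxia or normoxia. They were NFKB1, NFKB2 and RELB, which encode subunits of the transcription factor, NFKBIA, NFKBIZ and TNFAIP3, which regulate it and are among its own targets, BIRC3 and ICAM1, which are targets, and TNF, a cytokine that is both an inducer and a target. They were taken from the raw count table by human gene symbol, 1 entry for each symbol, out of 13827 entries at 13313 loci. Of 10 symbols sought, 9 were found, and RELA was not analysed here. The rule that picks the rows uses the symbols and no measured value, but the symbols were chosen with earlier results of these data known.

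The series held 17 RNA-seq libraries in 6 groups, each library made from total right lung homogenate of a New Zealand White pup. Pups of every group were delivered preterm on day 28 of gestation and fed milk replacer, so the normoxia groups were preterm lungs as well. Hyperoxia (95% O2) lasted 3, 5 or 7 days after birth in HT3 (n = 3), HT5 (n = 2) and HT7 (n = 3), and the matched normoxia (21% O2) groups were NT3, NT5 and NT7 (n = 3 each). The question asked of these genes was whether their RNA differed between HT and NT lungs on each day. Each library held 14508362 to 19961087 counts, and levels are given as CPM, counts scaled to a common library total, which compare samples for 1 gene but not genes with each other. The labels give a replicate number but no litter, so p-values measure only the spread between these samples. In whole lung, a change in the number of cells of a type and a change in RNA per cell cannot be told apart.

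NF-kB is a family of dimeric transcription factors that wait in the cytoplasm bound to inhibitory IkB proteins. Signals from cytokine receptors, pattern recognition receptors or oxidative stress activate the IkB kinases, the inhibitor is degraded, and the dimer enters the nucleus. Among the genes it switches on are its own inhibitors and precursor subunits, so their RNA is often used as a readout of the loop, although RNA does not measure nuclear translocation. In the lung the pathway is known for alveolar inflammation, for survival of epithelium and endothelium, and for a part in vascular and alveolar development.

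Not a single member was called on day 3, while 5 were upregulated on day 5 and 6 on day 7, and none was downregulated on any day. A gene was called where its adjusted p was under 0.05 in edgeR's quasi-likelihood test with Benjamini-Hochberg adjustment over the 13142 genes tested, all 9 members among them. The called genes on day 5 were NFKB1, NFKB2, NFKBIZ, BIRC3 and ICAM1, and TNFAIP3 was added on day 7. Over all genes tested, 0.517% were called higher on day 3, 15.9% on day 5 and 23.7% on day 7, and 0.517%, 15.4% and 23.7% were called lower. On day 3, 3 members had an unadjusted p under 0.05 (NFKBIA, NFKBIZ and ICAM1), all higher in HT3, and DESeq2 called 1, NFKBIA. For the downward direction, 0 members had an unadjusted p under 0.05 on any of the 3 days, and DESeq2 called 0.

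The median log2 fold change (log2FC, HT over NT) of the 9 members was 0.73 on day 3, 1.01 on day 5 and 1.04 on day 7. The same median over all genes tested was 0.00, -0.02 and -0.01. By the stricter thresholds of the study (adjusted p under 0.01 and log2FC above 2 or below -2) no member passed on day 3, BIRC3 and NFKBIZ passed on day 5, and BIRC3 alone passed on day 7. Those thresholds were passed upward by 0.0533% of all genes on day 3, 0.822% on day 5 and 1.75% on day 7.

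**Figure D1:**
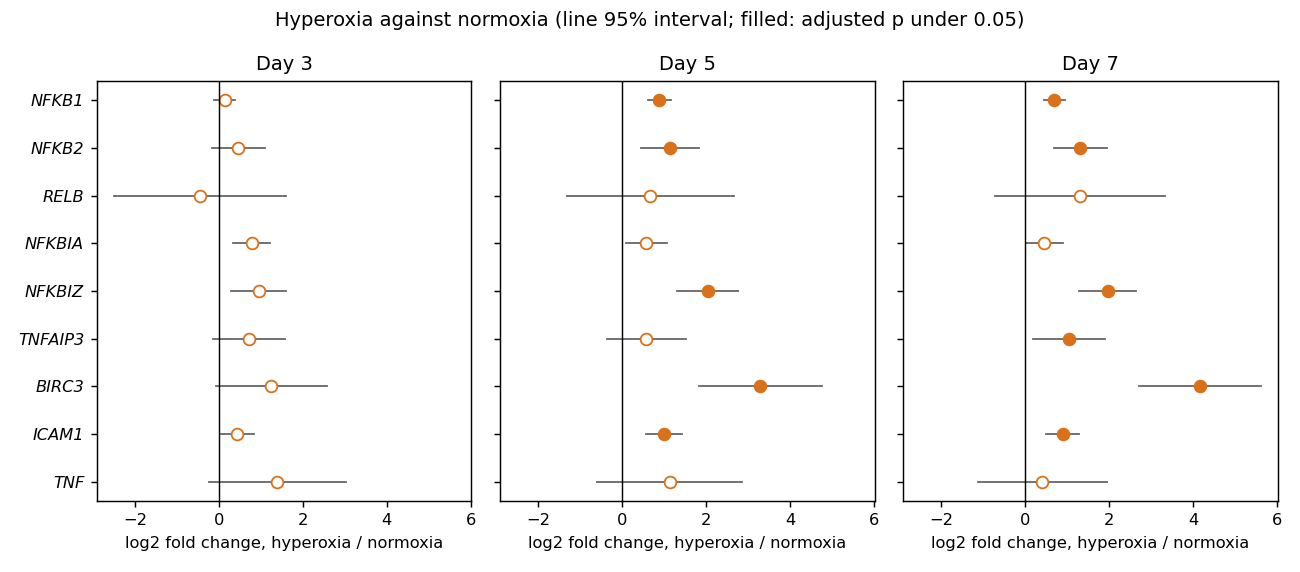
Log2 fold change of hyperoxia over normoxia (x axis) for each of the 9 genes (y axis) on days 3, 5 and 7, with lines for the 95% interval and filled points for genes with an adjusted p under 0.05. No point is filled on day 3, 5 are filled on day 5 and 6 on day 7, all to the right of 0.

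Taking the subunits first, NFKB1 encodes p105, the precursor of the p50 subunit, and lies at chr15:47003122-47236638 on the minus strand of OryCun2.0 (ENSOCUG00000021712). Its level on day 3 was 64.9, 70.6 and 75.5 CPM in NT3 and 74.7, 69.8 and 87.2 CPM in HT3. On day 5 it was 83.6, 68.3 and 66.8 CPM in NT5 against 129 and 140 CPM in HT5. On day 7 it was 73.3, 74.7 and 74.6 CPM in NT7 against 116, 107 and 136 CPM in HT7. The groups overlapped on day 3 and stood apart on days 5 and 7, with every HT5 and HT7 sample above the highest of the 9 normoxia samples, 83.6 CPM. The log2FC was 0.14 (SE 0.12, adjusted p = 0.629) on day 3, 0.88 (SE 0.13, adjusted p = 0.000336) on day 5 and 0.69 (SE 0.12, adjusted p = 0.000273) on day 7. NFKB1 therefore changed by 1.85-fold at most, with the smallest standard errors of the 9 members. The effect of hyperoxia on NFKB1 was larger on day 7 than on day 3 by 0.56 (SE 0.17, adjusted p = 0.0301) and larger on day 5 than on day 3 by 0.75 (SE 0.18, adjusted p = 0.0494). Of all genes tested, 9.52% had a larger effect on day 7 than on day 3 by this test and 0.624% a larger effect on day 5. Leaving out 1 sample ended the first of the NFKB1 calls in 8 of 12 fits and the second in 8 of 11. With the replicate number as a block the second was 0.70 (adjusted p = 0.117) and no longer called.

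NFKB2 encodes p100, the precursor of p52 in the noncanonical branch of the pathway, and lies at chr18:50404793-50412452 on the plus strand (ENSOCUG00000005735). It measured 43.8, 40.0 and 45.9 CPM in NT3 and 38.4, 48.8 and 90.8 CPM in HT3. It measured 68.3, 39.9 and 34.0 CPM in NT5 and 110 and 98.9 CPM in HT5. It measured 42.9, 35.1 and 50.2 CPM in NT7 and 108, 81.0 and 130 CPM in HT7. On day 3 only replicate 3 of HT3 lay well above normoxia, whereas both HT5 samples and all 3 HT7 samples lay above every normoxia sample. The log2FC was 0.46 (SE 0.30, adjusted p = 0.485) on day 3, 1.14 (SE 0.32, adjusted p = 0.0157) on day 5 and 1.31 (SE 0.30, adjusted p = 0.00229) on day 7. The day 5 call rested on few samples. It was lost without NT5 replicate 2 (1.04, adjusted p = 0.0532) or NT5 replicate 3 (0.95, adjusted p = 0.0609). Without HT5 replicate 1 or 2, which leaves 1 sample in HT5, the log2FC was 1.06 or 1.21. The difference between the day 7 and the day 3 effect was 0.86 (adjusted p = 0.159). With the replicate number as a block that difference was 0.94 (adjusted p = 0.0468), and without HT3 replicate 3 it was 1.30 (adjusted p = 0.0224).

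RELB, the usual partner of p52, could not be followed at this depth. The entry that carries the symbol as its human ortholog has no rabbit gene name and lies on scaffold GL018921 from 382717 to 562162 (ENSOCUG00000035885). It held 0 to 11 counts in a library. Its levels ran from 0.056 to 0.512 CPM in NT3, 0 to 0.35 in HT3, 0.103 to 0.666 in NT5, 0.344 to 0.595 in HT5, 0.0623 to 0.273 in NT7 and 0.307 to 0.519 CPM in HT7. The groups overlapped on days 3 and 5, and on day 7 the 3 HT7 samples lay above the 3 NT7 samples by a few counts. The log2FC of 1.31 on day 7 had a 95% interval from -0.72 to 3.34 (adjusted p = 0.273).

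Of the inhibitors and feedback genes, NFKBIA encodes IkB-alpha, which binds NF-kB dimers and is resynthesised on their activation. It lies at chr17:55106578-55109740 on the minus strand (ENSOCUG00000015642). On day 3 it measured 222, 165 and 231 CPM in NT3 and 294, 401 and 368 CPM in HT3. On day 5 it measured 260, 163 and 179 CPM in NT5 and 350 and 251 CPM in HT5. On day 7 it measured 231, 241 and 177 CPM in NT7 and 360, 254 and 280 CPM in HT7. All 3 HT3 samples exceeded the highest of the 9 normoxia samples, a pattern no other member showed on day 3 and 5.25% of all genes did. On day 5 the groups overlapped, and on day 7 the lowest HT7 sample (254 CPM) was just above the highest NT7 sample (241 CPM). The log2FC was 0.78 (95% interval 0.34 to 1.23, adjusted p = 0.0909) on day 3, 0.58 (0.09 to 1.07, adjusted p = 0.067) on day 5 and 0.46 (0.02 to 0.91, adjusted p = 0.0812) on day 7. It missed the threshold on each day. DESeq2 called it on day 3 (0.78, adjusted p = 0.0131) and on day 5 (0.59, adjusted p = 0.0452), edgeR called it on day 5 without NT5 replicate 1 (0.81, adjusted p = 0.0173) and on day 7 without HT7 replicate 2 (0.58, adjusted p = 0.0465). The day 7 effect differed from the day 3 effect by -0.32 (95% interval -0.95 to 0.31, adjusted p = 0.467).

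NFKBIZ encodes IkB-zeta, a nuclear member of the IkB family that binds p50 and is needed for a second wave of targets. It lies at chr14:118679073-118690066 on the minus strand (ENSOCUG00000000133). It measured 23.1, 15.8 and 23.9 CPM in NT3 and 28.3, 40.0 and 52.5 CPM in HT3. It measured 29.9, 12.6 and 21.3 CPM in NT5 and 86.7 and 88.6 CPM in HT5. It measured 31.8, 17.9 and 18.8 CPM in NT7 and 116, 75.0 and 75.9 CPM in HT7. The hyperoxia samples lay above the normoxia samples of the same day on all 3 days, and on days 5 and 7 the gap was wide, with 75.0 CPM as the lowest hyperoxia value and 31.8 CPM as the highest normoxia value. The log2FC was 0.95 (SE 0.31, adjusted p = 0.163) on day 3, 2.04 (SE 0.34, adjusted p = 0.000777) on day 5 and 1.97 (SE 0.32, adjusted p = 0.00019) on day 7. These are 4.12-fold and 3.91-fold on days 5 and 7. The day 7 call held when any 1 sample was left out, with a log2FC of 1.73 to 2.28. On day 5 the log2FC stayed at 1.79 to 2.37, but fits without an HT5 sample leave 1 sample in that group. The day 7 minus day 3 difference in effect was 1.02 (95% interval 0.08 to 1.96, adjusted p = 0.114) and was not called.

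TNFAIP3 encodes A20, a ubiquitin-editing enzyme that shuts down signalling upstream of the IkB kinases, and lies at chr12:128329706-128460517 on the plus strand (ENSOCUG00000002310). It measured 69.9, 40.6 and 78.4 CPM in NT3 and 76.2, 139 and 98.0 CPM in HT3. It measured 115, 40.2 and 46.8 CPM in NT5 and 79.3 and 123 CPM in HT5. It measured 86.9, 130 and 58.3 CPM in NT7 and 238, 141 and 186 CPM in HT7. Its spread within normoxia was wide and the groups overlapped on days 3 and 5. On day 7 all 3 HT7 samples were above the 9 normoxia samples, although the lowest, 141 CPM, was close to 130 CPM in NT7 replicate 2. The log2FC was 0.73 (SE 0.40, adjusted p = 0.409) on day 3, 0.58 (SE 0.44, adjusted p = 0.33) on day 5 and 1.04 (SE 0.40, adjusted p = 0.0449) on day 7. The day 7 call was lost without HT7 replicate 1 (0.83, adjusted p = 0.149), HT7 replicate 3 (1.06, adjusted p = 0.0789), NT7 replicate 1 (1.0, adjusted p = 0.104) or NT7 replicate 3 (0.80, adjusted p = 0.161), and with the replicate block (1.09, adjusted p = 0.0781). Without NT5 replicate 1 the gene was called on day 5 (1.22, adjusted p = 0.0337).

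BIRC3, which encodes the ubiquitin ligase and apoptosis inhibitor cIAP2, had the largest changes of the 9 members on days 5 and 7. It lies at chr1:114183955-114210053 on the minus strand (ENSOCUG00000010109). It measured 16.2, 19.2 and 29.2 CPM in NT3 and 30.9, 48.5 and 74.2 CPM in HT3. It measured 73.3, 21.1 and 15.1 CPM in NT5 and 163 and 552 CPM in HT5. It measured 61.7, 23.7 and 45.5 CPM in NT7 and 762, 363 and 1210 CPM in HT7. The hyperoxia samples stood above normoxia of the same day on all 3 days, narrowly on day 3, and the hyperoxia samples also differed widely among themselves. The mean was 51.2 ± 21.8 CPM (SD, n = 3) in HT3, 358 ± 276 CPM (SD, n = 2) in HT5 and 778 ± 424 CPM (SD, n = 3) in HT7, against 43.6 ± 19.1 CPM (SD, n = 3) in NT7.

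The log2FC of BIRC3 was 1.25 (SE 0.62, adjusted p = 0.354) on day 3, 3.29 (SE 0.69, adjusted p = 0.0028) on day 5 and 4.16 (SE 0.68, adjusted p = 0.000196) on day 7. On day 7 this was a 17.8-fold difference, and 0.35% of all genes tested had a larger log2FC. The day 7 call held when any 1 sample was left out (3.70 to 4.51). The day 5 value depended on single samples, being 2.15 without HT5 replicate 2, which leaves 1 sample in HT5, and 4.31 without NT5 replicate 1. The effect was larger on day 7 than on day 3 by 2.91 (SE 0.87, 95% interval 1.04 to 4.77, adjusted p = 0.0307), a call that was lost in 7 of 12 fits leaving out 1 sample. The day 5 and day 3 effects differed by 2.04 (adjusted p = 0.22).

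ICAM1 encodes the adhesion molecule of endothelium and alveolar epithelium that leukocytes bind through their beta2 integrins, and lies on scaffold GL018833 from 98071 to 106836 on the minus strand (ENSOCUG00000029644). It measured 259, 281 and 248 CPM in NT3 and 288, 344 and 436 CPM in HT3. It measured 333, 215 and 212 CPM in NT5 and 528 and 490 CPM in HT5. It measured 325, 242 and 255 CPM in NT7 and 568, 439 and 513 CPM in HT7. No hyperoxia sample overlapped normoxia of its own day, and the 5 samples of HT5 and HT7 were all above the highest normoxia sample, 333 CPM. The log2FC was 0.44 (SE 0.19, adjusted p = 0.273) on day 3, 1.01 (SE 0.20, adjusted p = 0.00238) on day 5 and 0.89 (SE 0.19, adjusted p = 0.00129) on day 7. The day 7 call held when any 1 sample was left out, with a log2FC of 0.80 to 1.03. On day 5 the log2FC stayed at 0.89 to 1.25, again with 1 HT5 sample left where the other was dropped. The day 7 minus day 3 difference in effect was 0.45 (95% interval -0.11 to 1.01, adjusted p = 0.236) and was not called. ICAM1 was higher while the sum of 11 endothelial markers was lower, at 1650 to 1750 CPM in HT5 against 2710 to 3310 in NT5 and 1150 to 1600 CPM in HT7 against 2750 to 3290 in NT7. Of these 11 markers, 7 were called lower and 2 higher (VWF and FLT1) on day 5, and 8 lower and 1 higher (FLT1) on day 7, while PECAM1 had a log2FC of -0.15 and -0.05 and was not called. Over all genes tested, 15.4% were called lower and 15.9% higher on day 5, and 23.7% in each direction on day 7. The cell source of ICAM1 was not tested.

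TNF encodes the cytokine that activates the canonical pathway through its receptors, and lies at chr12:20399449-20402001 on the plus strand (ENSOCUG00000006698). Its counts were low, 8 to 73 in a library. It measured 0.504, 0.806 and 1.19 CPM in NT3 and 0.591, 1.94 and 4.08 CPM in HT3. It measured 2.79, 1.02 and 0.413 CPM in NT5 and 5.02 and 1.19 CPM in HT5, and 2.53, 0.877 and 3.30 CPM in NT7 against 2.94, 3.63 and 2.41 CPM in HT7. The groups overlapped on all 3 days. The log2FC was 1.39 (95% interval -0.24 to 3.03, adjusted p = 0.409) on day 3, 1.14 (-0.59 to 2.86, adjusted p = 0.299) on day 5 and 0.41 (-1.12 to 1.95, adjusted p = 0.662) on day 7. The intervals include both no difference and differences of several fold, and a change in TNF was not detectable at this depth and spread.

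**Figure D2:**
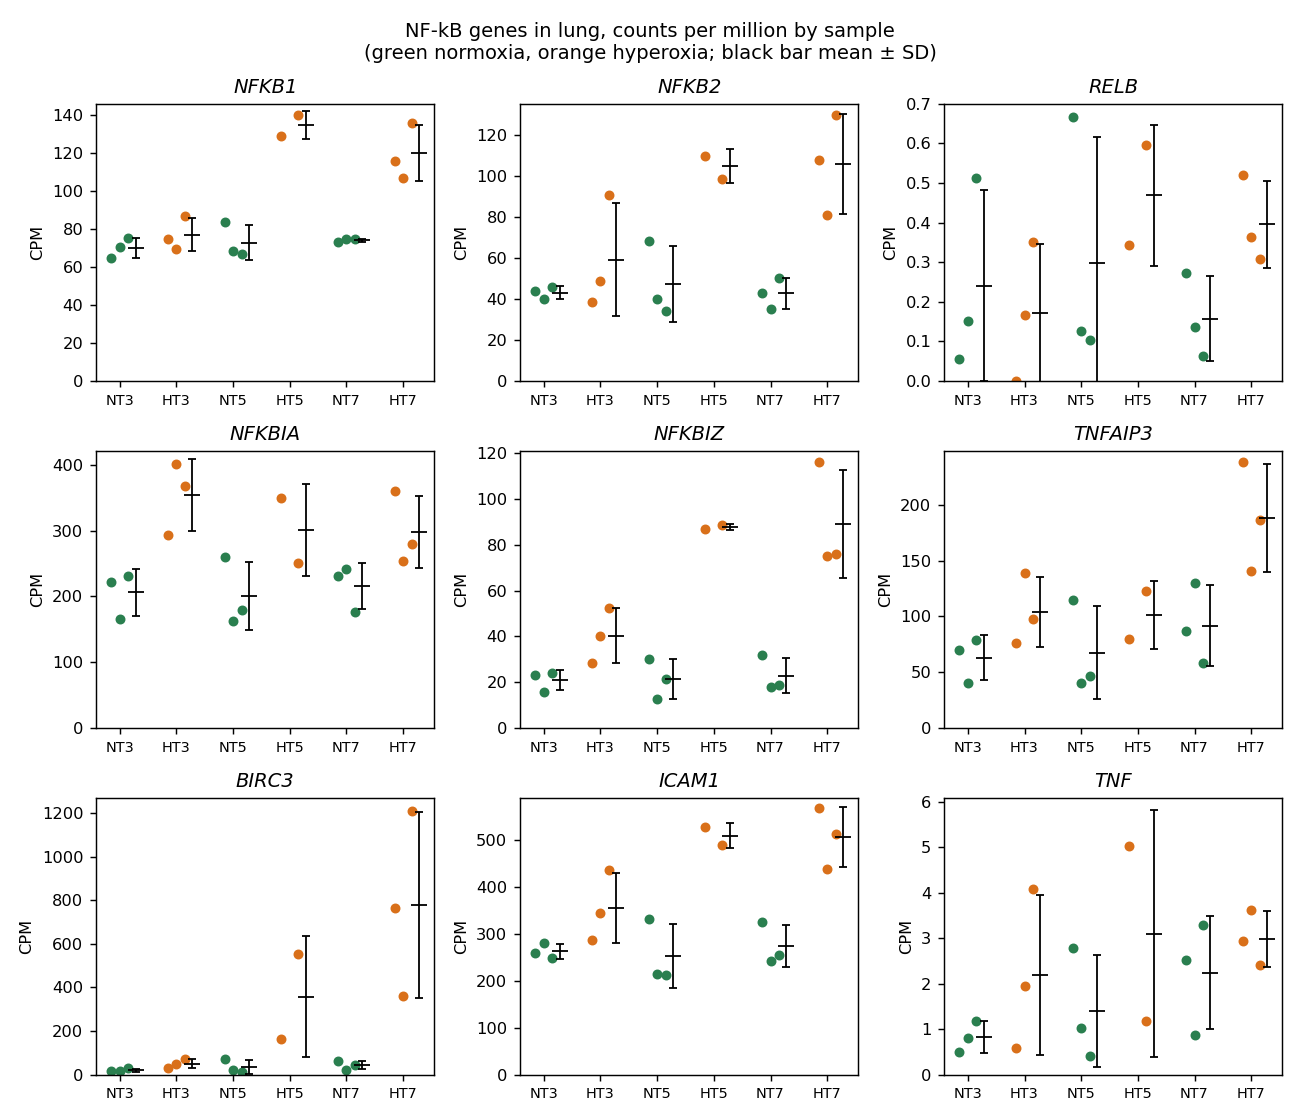
CPM (y axis, from 0) of each gene in each sample by group (x axis), green for normoxia and orange for hyperoxia, with a black bar for the mean and whiskers for the SD, cut off where they would pass below 0. BIRC3 rises from 51.2 CPM in HT3 to 778 CPM in HT7 while TNF stays at 5.02 CPM or below and RELB at 0.666 CPM or below.

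Some members separated completely by group without passing the test. Every HT sample lay above every NT sample of the same day for 4 members on day 3 (NFKBIA, NFKBIZ, BIRC3 and ICAM1), for the 5 called members on day 5, and for all members but TNF on day 7. Among all genes tested this was so for 12.8% on day 3, 26.5% on day 5 and 27.3% on day 7. Set against all 9 normoxia samples, every HT sample was higher for 1 member on day 3, 5 on day 5 and 6 on day 7, and for 5.25%, 20.8% and 21.7% of all genes.

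**Figure D3:**
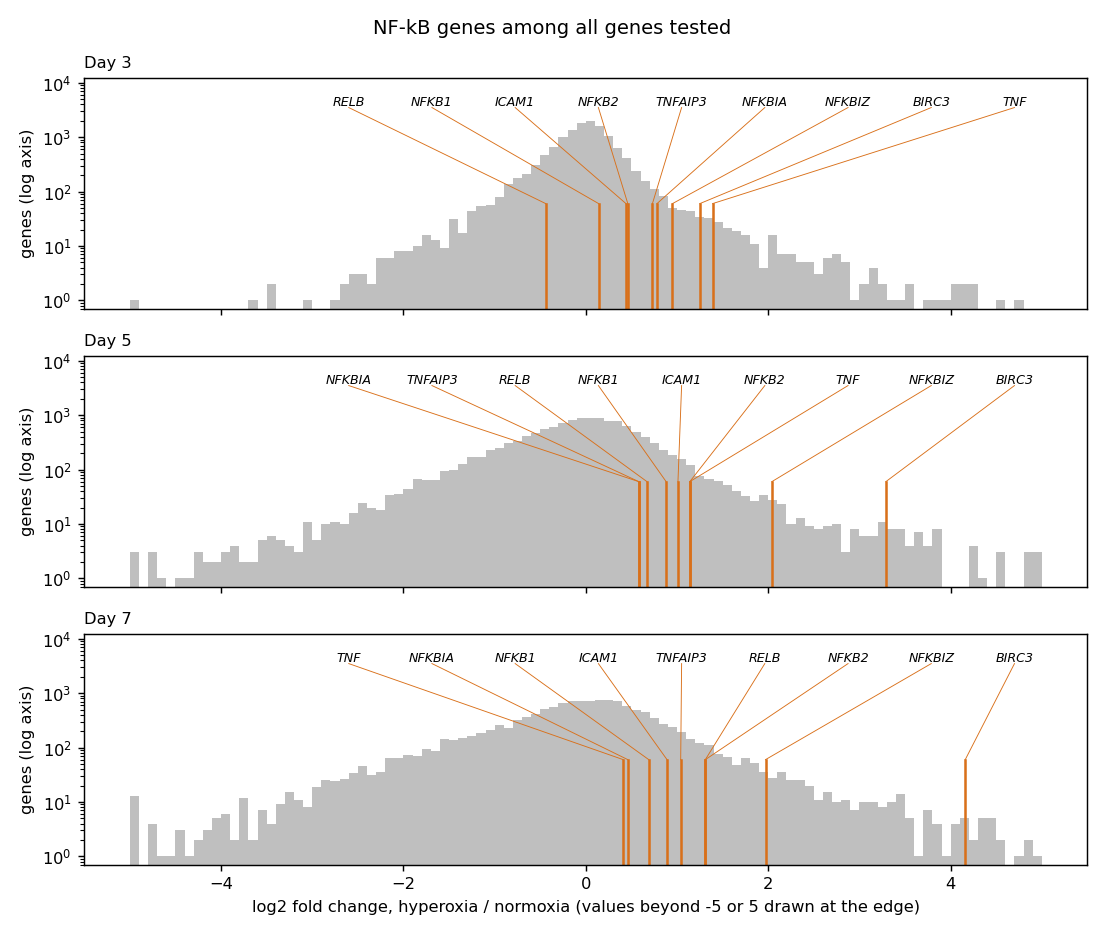
Number of genes (y axis, log scale) by log2 fold change of hyperoxia over normoxia (x axis) for the 13142 genes tested on days 3, 5 and 7, with the 9 genes marked by orange lines. On day 7 BIRC3 at 4.16 stands in the far right tail, with NFKBIZ at 1.97 next, and all 9 lines are right of 0.

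In 4 of the 6 groups, 1 sample was highest or lowest for at least 7 of the 9 members. NT5 replicate 1 had the highest level of the 3 NT5 samples for 9 of 9 members, and 37.7% of all genes tested were highest in that sample. NT3 replicate 3 was highest in its group for 8 of 9 members (33.8% of all genes). HT3 replicate 1 was lowest for 8 of 9 (31.9%), HT3 replicate 3 highest for 7 (33.4%), and HT7 replicate 2 lowest for 7 (38.7%). In NT7 the highest level fell to replicates 1, 2 and 3 for 4, 3 and 2 members and the lowest for 1, 5 and 3, and 32.8% of all genes were lowest in NT7 replicate 2. In HT5 the highest level fell to replicates 1 and 2 for 4 and 5 members and the lowest for 5 and 4. These counts describe the samples and were not tested. Without NT5 replicate 1 the number of members called on day 5 was 7 in place of 5, and without HT5 replicate 2 it was 3.

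**Figure D4:**
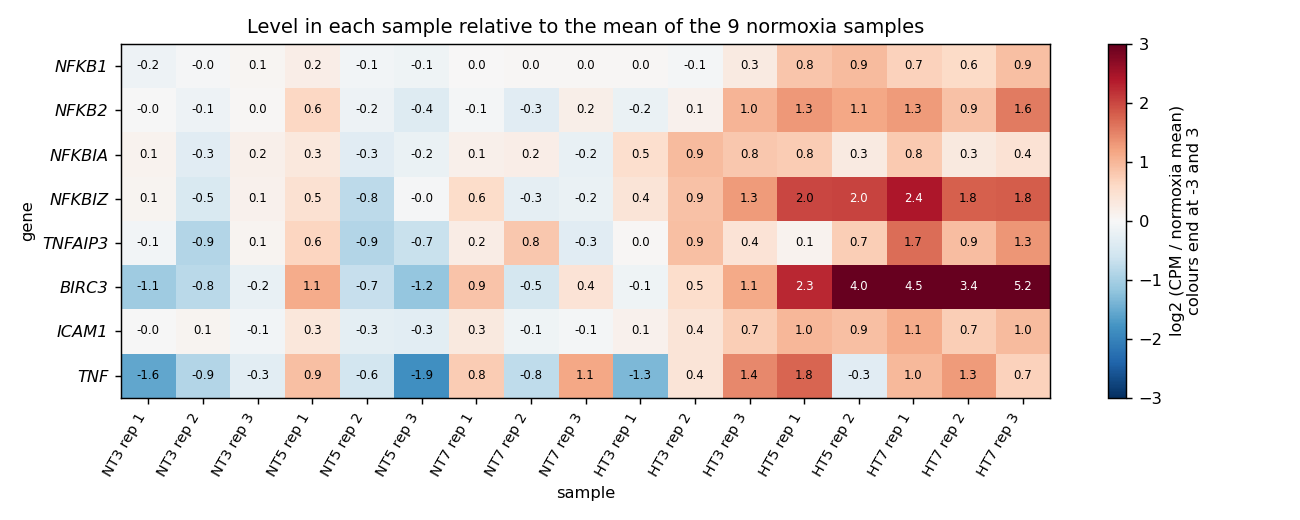
Log2 of each gene's CPM relative to the mean of the 9 normoxia samples (colour and printed value) for 8 genes (rows) in 17 samples (columns), RELB being left out because 1 sample had no count. NT5 replicate 1 is above 0 for all 8 genes (0.21 to 1.11), and BIRC3 reaches 5.16 in HT7 replicate 3.

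Leukocyte markers differed between groups on some days. The summed level of 14 macrophage and monocyte markers in the table, of 15 listed, was 1310 to 1910 CPM in HT3 and 1230 to 1320 in NT3, 2030 to 2410 in HT5 and 1150 to 2150 in NT5, and 2300 to 2900 CPM in HT7 and 1570 to 1840 in NT7. CD68, whose locus holds 7 entries and whose counts are therefore uncertain, made up much of the difference, at 1180 to 2000 CPM in HT7 and 599 to 768 CPM in NT7. Without it, a choice made after seeing the values, the sum of the other 13 was 667 to 1060 CPM in HT3 and 623 to 650 in NT3. This sum was 707 to 1260 CPM in HT5 and 557 to 1320 in NT5, and 764 to 1120 CPM in HT7 and 887 to 1070 in NT7. HT and NT then stood narrowly apart on day 3, where they overlapped with CD68, and overlapped on days 5 and 7. Among the 13 kept, LYZ (2 entries) and ITGAX (3 entries) also share their loci. On day 7, 4 of the 14 were called higher (CD68, CD163, MSR1 and MERTK) and 3 lower (MARCO, LYZ and SIGLEC1). These counts are near the 23.7% of all genes tested called in each direction that day. NT5 replicate 1, the sample in which all members were highest of their group, also had the highest sum in NT5, 2150 CPM with CD68, and without it 1320 CPM against 630 and 557 CPM. The summed level of 11 neutrophil markers, of 15 listed, was 1250 to 1930 CPM in HT3 and 348 to 866 in NT3, 776 to 1080 in HT5 and 190 to 845 in NT5, and 1170 to 3620 CPM in HT7 and 1150 to 1260 in NT7. The neutrophil sums of HT and NT samples stood apart on day 3, as did 4 members, and overlapped on days 5 and 7. On day 3, 0 of 10 neutrophil markers tested were called, beside 0.517% of all genes in each direction. Of the 10, 7 had an unadjusted p under 0.05, all upward, and DESeq2 called 2. No listed marker in the table was at or under 3 counts in every library. The part of these cells in the members' changes was not tested. The sum of 8 skeletal muscle markers was 533 CPM in HT3 replicate 2 and 443 CPM in HT5 replicate 1, and 124 to 193 CPM in the others. No member was called on day 3 with or without HT3 replicate 2, so leaving it out shows nothing about these markers. Leaving out HT5 replicate 1 leaves 1 sample in HT5. The part of muscle RNA in the members' changes was not tested. Lung identity was clear, with 10 of 14 lung markers in the table at a summed 13800 to 34000 CPM.

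The rest of the pathway was read from 4 lists of 110 genes, 94 of them in the table and 92 tested. On day 3, 1 of the 92 was called higher and 0 lower, and 18 had an unadjusted p under 0.05 upward and 2 downward, while DESeq2 called 5 higher and 1 lower. On day 5, 32 were called higher and 3 lower, beside 15.9% and 15.4% of all genes tested. On day 7, 39 were called higher and 8 lower, beside 23.7% of all genes in each direction. Their median log2FC was 0.21, 0.39 and 0.35 on the 3 days. By list, the medians on day 7 were 0.17 for the other subunits and inhibitors, 0.16 for kinases and adaptors, 0.36 for receptors and ligands, and 1.39 for other target genes.

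Receptors and ligands gave the only call of day 3. IL1RAP, the shared accessory chain of interleukin-1 family receptors, was higher in HT3 by 1.37 (SE 0.24, adjusted p = 0.0141), and also on day 5 (1.75, adjusted p = 0.000319) and day 7 (1.51, adjusted p = 0.000122). The day 3 call was lost in 4 of 6 fits that left out 1 sample and with the replicate block (1.36, adjusted p = 0.0717). TNFRSF12A, the receptor for TWEAK, which feeds the noncanonical branch, rose by 2.81 (SE 0.37, adjusted p = 0.000191) on day 5 and 3.27 (SE 0.36, adjusted p = 8.8e-06) on day 7. IL1B, which encodes interleukin-1 beta, rose by 2.37 (adjusted p = 0.00607) on day 5 and 1.53 (adjusted p = 0.0225) on day 7, and the first of these calls was lost without HT5 replicate 1, the second without HT7 replicate 1, NT7 replicate 2 or NT7 replicate 3. TNFRSF11A, which encodes RANK, fell by 1.11 (SE 0.36, adjusted p = 0.0211) on day 7, a call lost in 3 of 6 fits leaving out 1 sample. In all, 6 of 25 tested were called higher on day 5 and 8 on day 7, and 0 and 1 lower, beside the 15.9% and 23.7% of all genes called higher and the 15.4% and 23.7% called lower. For the 0 on day 5, no gene had an unadjusted p under 0.05 downward, and DESeq2 called 0.

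Of 29 kinases and adaptors tested, 0 were called on day 3, when 3 had an unadjusted p under 0.05 upward and 2 downward, and DESeq2 called 1 in each direction. On day 5, 10 were called higher and 3 lower, beside 15.9% and 15.4% of all genes tested. On day 7, 12 were called higher and 4 lower, beside 23.7% of all genes in each direction. IRAK1, a kinase of Toll-like and interleukin-1 receptor signalling, rose by 1.14 (SE 0.16, adjusted p = 0.000303) and 1.47 (SE 0.15, adjusted p = 5.71e-06) on days 5 and 7. RIPK2, the kinase of NOD receptors, rose by 1.09 (adjusted p = 0.00262) and 1.21 (adjusted p = 0.000277), and MAP3K8, a kinase bound by p105, by 1.08 (adjusted p = 0.0109) and 1.0 (adjusted p = 0.00534). The day 5 call of RIPK2 was lost without HT5 replicate 2 and that of MAP3K8 without HT5 replicate 1. CARD10, a scaffold that links surface receptors to the IkB kinases in non-immune cells, fell by 1.22 on both days (adjusted p = 6.11e-05 and 3.02e-06). TAB1, an adaptor of the TAK1 kinase, fell by 0.84 (adjusted p = 0.000373) and 0.88 (adjusted p = 2.31e-05). TRAF5 fell by 0.60 (adjusted p = 0.0168) on day 5, a call lost without either HT5 sample, and RNF31 fell by 0.62 (adjusted p = 8.31e-05) on day 7 with counts shared between 2 entries of its locus.

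Among 13 other subunits and inhibitors, 0 were called on day 3, when 3 had an unadjusted p under 0.05, all upward, and DESeq2 called 1. On day 5, 5 were called higher and 0 lower (1 by unadjusted p and 1 by DESeq2), and on day 7, 5 higher and 1 lower. The shares over all genes were 15.9% and 15.4% on day 5 and 23.7% in each direction on day 7. NFKBIE, which encodes IkB-epsilon, rose by 1.35 (SE 0.46, adjusted p = 0.0358) on day 5, a call lost in 4 of 5 fits leaving out 1 sample and with the replicate block (1.28, adjusted p = 0.0656), and by 2.22 (SE 0.43, adjusted p = 0.000735) on day 7. ZC3H12A, which encodes the ribonuclease Regnase-1, rose by 1.62 (adjusted p = 0.00678) and 1.82 (adjusted p = 0.000943). BCL3, a nuclear IkB protein and partner of p50 and p52, rose by 1.58 (adjusted p = 0.00943) and 1.30 (adjusted p = 0.01), the day 5 call being lost without HT5 replicate 1. PDLIM2, a ubiquitin ligase that acts on nuclear p65, fell by 0.70 (adjusted p = 0.00959) on day 7, a call lost without NT7 replicate 1.

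Of 25 other target genes, 0 were called on day 3, when 8 had an unadjusted p under 0.05, all upward, and DESeq2 called 2. On day 5, 11 were called higher and 0 lower (0 by unadjusted p and by DESeq2), and on day 7, 14 higher and 2 lower. The shares over all genes were 15.9% and 15.4% on day 5 and 23.7% in each direction on day 7. CCL2, a monocyte chemokine, rose by 5.47 (SE 1.23, adjusted p = 0.00452) on day 5 and 4.39 (SE 1.14, adjusted p = 0.00535) on day 7. PTGS2, the inducible cyclooxygenase, rose by 3.08 (SE 0.70, adjusted p = 0.00478) and 5.18 (SE 0.73, adjusted p = 6.12e-05). The day 5 calls of both were lost without HT5 replicate 2 (CCL2 4.37, adjusted p = 0.0528, and PTGS2 1.87, adjusted p = 0.136). CXCL8, a neutrophil chemokine, rose by 3.24 (SE 1.01, adjusted p = 0.0245) on day 5, a call lost in 4 of 5 fits leaving out 1 sample. CSF3, the granulocyte growth factor, had the largest rise of the list on day 7, 6.31 (SE 1.01, adjusted p = 0.000161). Its mean was 28.5 ± 25.7 CPM (SD) in HT7 and 0.352 ± 0.274 CPM (SD) in NT7, so the ratio rests on normoxia values near 0. With 0.42 CPM in HT3 and 1.23 CPM in HT5, it met the level needed for naming only through HT7. IRF1, an interferon-response transcription factor, fell by 0.98 (adjusted p = 0.0458) on day 7, a call lost in 5 of 6 fits leaving out 1 sample, and TNFAIP2 fell by 0.62 (adjusted p = 0.00226).

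**Figure D5:**
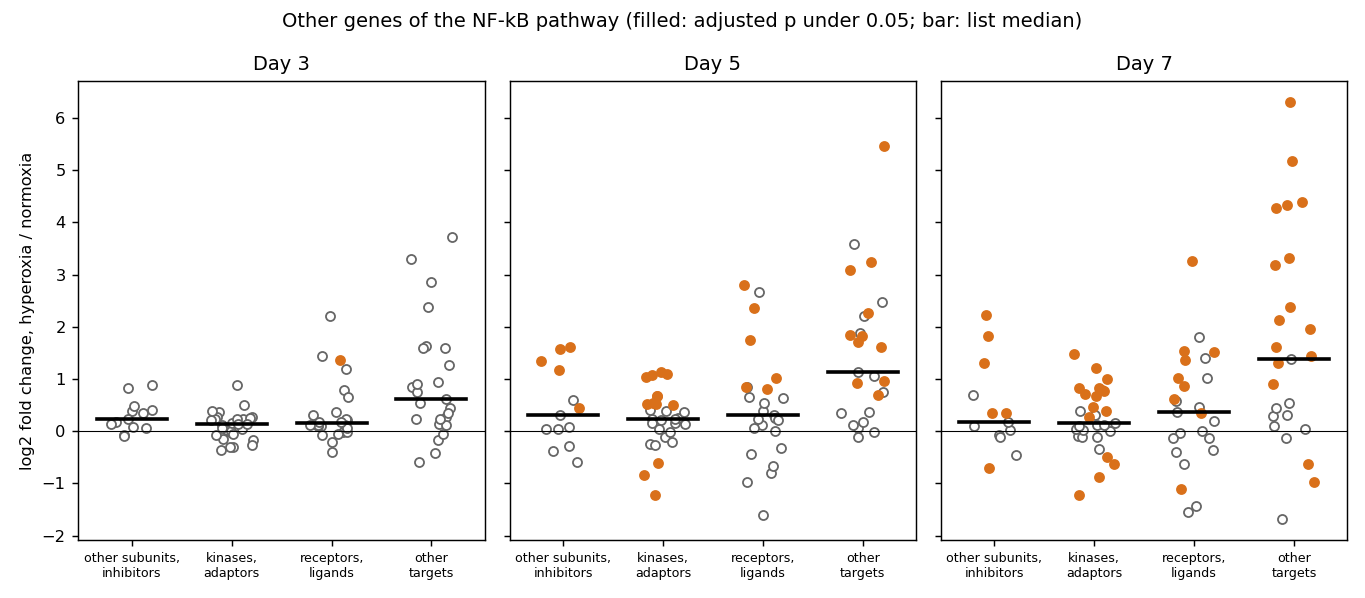
Log2 fold change of hyperoxia over normoxia (y axis) for each tested gene of 4 other pathway lists (x axis) on days 3, 5 and 7, filled where the adjusted p is under 0.05, with a bar at each list's median. The bar of the other target genes moves from 0.61 on day 3 to 1.39 on day 7, while the other lists stay between 0.13 and 0.36.

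The genes outside the members whose log2FC over the 3 days lay nearest to those of BIRC3, by Euclidean distance among 11493 genes, were SPHK1 and PRCD, which share 1 locus and cannot be told apart (distance 0.46, with 1.05, 3.01 and 3.85 on days 3, 5 and 7). Those nearest to NFKBIZ were XPC (distance 0.16, with 0.83, 2.15 and 1.93) and SLC25A33 (distance 0.18, with 0.99, 1.92 and 2.09). Between members the closest pair was NFKB1 and ICAM1 (distance 0.38), while the nearest member to BIRC3, NFKBIZ, was at 2.54.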

How the data were processed

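RNA of total right lung was made into stranded mRNA libraries and sequenced by the authors, who deposited raw counts for each locus without normalization. The submitters' processing notes name FastQC, STAR 2.7.10a and OryCun2.0. The counting program is not given in the sources used here, and locus labels are of the StringTie form. From these counts, genes were filtered with filterByExpr (685 of 13827 entries were not tested), scaled by TMM and tested with edgeR 4.0.16 (R 4.3.3) in 1 quasi-likelihood fit of all 17 samples with 6 group means. The Benjamini-Hochberg adjustment covered the 13142 genes tested. CPM used TMM library sizes. The SE was derived from log2FC and the F statistic. All samples were mapped to groups by their titles, and no library was a copy of another. The script was checked on simulated data.

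The members and all gene lists were chosen with earlier results of these data known. From each other pathway list, the 3 largest rises and falls among called genes (mean log2 CPM not under 1) were named for each day, and for the 2 called members with the largest day 7 change the 2 nearest genes by log2FC were named. Alternatives were DESeq2 1.42.0, another scaling, no count filter, another prior count, 1 entry for each locus, each day fitted alone, the study's thresholds, the replicate number as a block, and leaving out each sample. Leaving out 1 of the 2 HT5 samples leaves 1, so the spread in those fits comes from the other groups. Calls kept or lost in such fits do not measure the spread within HT5. Where same-numbered samples share more than a number, their deviations from group means should correlate. On day 3 these correlations were 0.166, 0.131 and 0.199, on day 5 they were 0.264 and 0.141, and on day 7 0.174, 0.109 and 0.0695. All day 3 pairs passed a minimum of 0.1, on day 5 only 2 pairs exist, and on day 7 replicate 3 fell short. Samples with different numbers gave -0.158 to -0.0132 on day 3, -0.264 to 0.187 on day 5 and -0.151 to 0.0556 on day 7. On days 3 and 7 the same-numbered samples thus correlated more than any others, weakly, and the reason was not tested. RELA was not analysed here.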

Additional observations from a re-analysis of the deposited data

Results flagged for a closer look

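For 3 results the effect of hyperoxia differed between days in a test of that difference itself (edgeR's quasi-likelihood test, Benjamini-Hochberg adjustment). The effect on NFKB1 was 0.56 larger on day 7 than on day 3 on the log2 scale (SE 0.17, adjusted p = 0.0301), and all 3 HT7 samples but 1 of 3 HT3 samples were above the highest normoxia sample. The effect on BIRC3 was 2.91 larger on day 7 than on day 3 (SE 0.87, adjusted p = 0.0307), with the same counts of samples above normoxia. The effect on NFKB1 was 0.75 larger on day 5 than on day 3 (SE 0.18, adjusted p = 0.0494), and with the replicate number as a block this was 0.70 (adjusted p = 0.117), which was not called. For day 7 against day 3, 9.52% of all genes tested were called with a larger effect, and for day 5 against day 3, 0.624%. With 1 sample left out the adjusted p ran from 0.0123 to 0.0764 for the first, from 0.0126 to 0.0805 for the second and from 0.0253 to 0.292 for the third. For 7 other members the day 7 and day 3 effects did not differ past the threshold, which does not show that they were equal.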

How the results depend on the processing

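Of 635 values of the members under the alternatives, 579 kept their direction and side of the threshold, 36 lost the call, 7 gained it and 13 turned direction. The 13 all came from leaving out 1 sample, and all 13 belong to results that were not called. They were RELB on day 3 (0.11 and 0.67, range -1.40 to 0.67), TNF on day 5 (-0.23, range -0.23 to 2.12), and day 5 minus day 3 differences of TNFAIP3 (-0.51 to 0.49), TNF (-1.62 to 0.72), NFKBIA (-0.46 to 0.03) and RELB (-0.00 to 2.08).

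With DESeq2, day 3 gave 1 member higher, 5 other pathway genes higher, 1 lower and 502 genes in all (edgeR 0, 1, 0 and 136), day 5 gave 5 other pathway genes lower (edgeR 3), and the day 5 minus day 3 difference gave 880 genes (edgeR 192). With each day fitted alone, 2 other pathway genes were higher on day 3 and 281 genes were called in all, and on day 5 2412 in place of 4115. By the study's thresholds the day 3 calls were 0 other pathway genes and 7 genes in all, the day 5 calls 2 members, 4 other pathway genes higher, 0 lower and 208 in all, and the day 7 calls 1 member, 9 other pathway genes higher, 0 lower and 603 of 6227 in all. Without the count filter, or with 1 entry for each locus, the day 5 minus day 3 call of NFKB1 was lost (0 members), and with 1 entry for each locus 1 other pathway gene was higher in place of 2. With the replicate number as a block, the pairing gave 37 genes on day 3, 0 other pathway genes there, and 2 genes for day 5 minus day 3, with 0 members and 0 other pathway genes in either direction. The block also ended the TNFAIP3 call of day 7 and made one for the NFKB2 difference, and, beside these and the NFKB1 difference of day 5, it changed no member's call. For these losses the cause was not tested.

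Leaving out 1 sample gave 0 to 0 members on day 3, 3 to 7 on day 5 and 5 to 7 on day 7, 0 to 3 for day 7 minus day 3 and 0 to 1 for day 5 minus day 3. Other pathway genes called higher ranged from 0 to 1, 14 to 36, 32 to 37, 8 to 20 and 0 to 5 in the same order, those called lower from 0 to 0, 2 to 5, 5 to 12, 2 to 8 and 0 to 2, and all genes called from 31 to 116, 1158 to 4286, 5181 to 6611, 1702 to 3811 and 2 to 1440. The lowest value of day 5 (1158) came without HT5 replicate 2.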

Other observations

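Lymphocyte markers were low. On day 7, 8 of 12 tested were called lower in HT7 than in NT7 and 0 higher (0 higher also by unadjusted p and by DESeq2). Of all genes tested, 23.7% were called in each direction. CD22 and NKG7 had a log2FC above 0. The median log2FC of the 12 was -0.69, -0.65 and -2.16 on days 3, 5 and 7. The sum of 13 was 11.1 to 12.3 CPM in HT3 and 11.9 to 22.2 in NT3, and 14.7 to 19.0 CPM in HT7 and 24.7 to 39.6 CPM in NT7. In NT5 replicate 1, where all 9 NF-kB genes were highest of their group, that sum was 45.7 CPM against 21.3 and 20.4 CPM in the other NT5 samples. The sum of 9 fibroblast markers was 7550 to 8680 CPM in HT7 and 8890 to 11200 CPM in NT7. Of the 9, 2 were called higher and 3 lower on day 7, beside 23.7% of all genes in each direction. Of 10 neutrophil markers tested, 2 were called higher and 0 lower on day 5 (0 lower also by unadjusted p and by DESeq2), and 1 in each direction on day 7. Of 7 skeletal muscle markers tested, 5 were called higher and 1 lower on day 5, with a median log2FC of 3.70, and 1 in each direction on day 7, and the HT5 sum was 443 CPM in replicate 1 and 137 CPM in replicate 2. Of 10 lung markers tested, 2 were called higher and 3 lower on day 7. Beside the day 5 counts of neutrophil and muscle markers, 15.9% of all genes tested were called higher and 15.4% lower. Beside the day 7 counts of neutrophil, muscle and lung markers, 23.7% were called in each direction. LTA and CD40LG, both ligands of the pathway, had too few counts to be tested.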
